A study of Mus musculus with 2 samples.

Results

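The genes described here are those of the calcium pumps of the sarcoplasmic reticulum and of the proteins that restrain the pumps or hold calcium: Atp2a1, Atp2a2, Atp2a3, Sln, Pln, Casq1, Casq2, Pvalb, Srl and Hrc. They were chosen by symbol, and all 10 were found among 55536 annotated genes, with 38 of 141862 annotated transcripts. Their RNA was measured by total RNA sequencing of gastrocnemius, the large calf muscle, in 2 libraries that form 1 group, so the data give levels and the spread between libraries and hold no comparison between groups. Both libraries came from adult female mice aged 8 to 10 months of the 5xFAD/CAST cross. 5xFAD is a transgenic model of Alzheimer's disease that carries human transgenes with familial mutations under the Thy1 promoter, and CAST is a wild-derived inbred strain. The labels give no transgene genotype of the mice sampled, and no group without the transgenes is analysed here. The labels call the libraries biological replicates 1 and 2 but give both the same donor identifier, so whether they came from separate animals is not settled.

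A muscle fibre contracts when calcium leaves the sarcoplasmic reticulum and relaxes when it is taken away again. Parvalbumin, the product of Pvalb, binds calcium in the cytosol and speeds the relaxation of fast fibres, while pumps of the SERCA family, encoded by the Atp2a genes, use ATP to carry calcium back into the reticulum. Small membrane proteins such as sarcolipin (Sln) and phospholamban (Pln) inhibit the pumps, and calsequestrin, sarcalumenin and the histidine-rich calcium-binding protein hold calcium inside the reticulum.

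The libraries held 34541905 expected counts in library 2 and 35594289 in library 1. They were not copies of 1 library, since a chi-square over 15960 genes came to 18.6 per degree of freedom. Levels are given as TPM, a gene's relative abundance after correction for transcript length, and means carry the SD over n = 2 libraries. Each library was quantified in 2 ways. The first quantifier worked from an alignment to transcripts and its tables have the columns RSEM writes, and the second worked from the reads and its tables have the columns kallisto writes. Values are those of the first unless the second is named. The muscle label fitted its markers. The 5 fast fibre markers summed to 30582 TPM in library 2 and to 25900 TPM in library 1. The sum of the 5 slow fibre markers was 1484 TPM in library 2 and 1081 TPM in library 1. Of 4 heart markers only Myh6, the alpha myosin heavy chain, passed TPM 1, with 78.2 TPM in library 2 and 59.2 in library 1. Nppa and Myl7 were at or below 0.20 TPM in both libraries. Tnni3 had 0.53 TPM in library 2 and 0.87 in library 1, and by the second quantifier 0.84 in library 2 and 1.02 in library 1. In bulk tissue fewer cells of a type and less RNA per cell cannot be told apart.

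The pump gene of fast fibres dominated the set. Atp2a1 (chromosome 7, 126445858 to 126463108, minus strand, mm10), which encodes SERCA1, had 12986 TPM in library 2 and 11592 TPM in library 1. Its mean of 12289 ± 985 TPM was the 5th highest of 22015 nuclear protein-coding genes, between Aldoa, a glycolytic aldolase, at 12592 ± 884 and Myh4, the main myosin heavy chain of this muscle's fast fibres, at 11485 ± 1204. The libraries of these neighbours overlapped with those of Atp2a1. Atp2a1 alone held 2.91% of nuclear protein-coding TPM in library 2 and 2.96% in library 1.

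The other pump genes were far below it. Atp2a2 (chromosome 5, 122453513 to 122502225, minus strand), the SERCA2 gene of slow and cardiac muscle, had 214.8 TPM in library 2 and 161.0 TPM in library 1. Atp2a3 (chromosome 11, 72961169 to 72993044, plus strand), the SERCA3 gene known from blood cells, platelets and endothelium, had 1.73 TPM in library 2 and 2.46 TPM in library 1. Atp2a1 therefore held 98.4% of the TPM of the pump genes in library 2 and 98.6% in library 1 (98.5 ± 0.176%). Atp2a2 held 1.63% in library 2 and 1.37% in library 1. Atp2a3 held 0.0131% in library 2 and 0.0209% in library 1 (0.0170 ± 0.00553%). Every Atp2a1 value lay above every Atp2a2 value, and every Atp2a2 value above every Atp2a3 value.

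**Figure D1:**
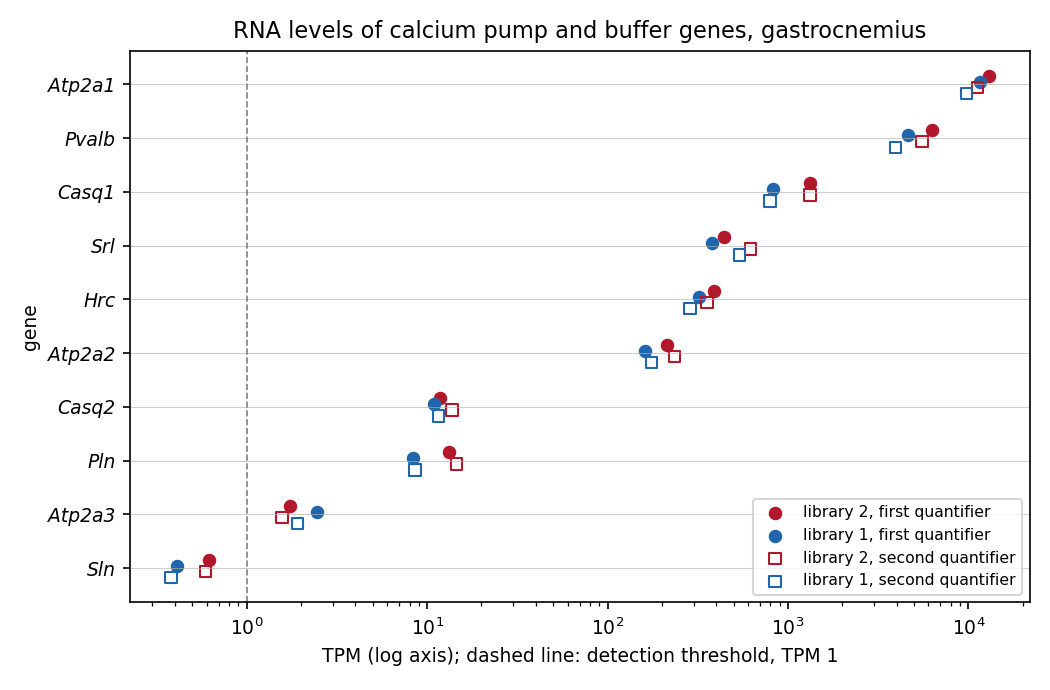
TPM of the 10 genes on a log axis, with filled circles for the first quantifier, open squares for the second, red for library 2 and blue for library 1. Levels run from Atp2a1 at 12986 TPM in library 2 and 11592 in library 1 to Sln with 0.62 TPM in library 2 and 0.41 TPM in library 1, the only gene left of the dashed line at TPM 1.

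Atp2a1 and Atp2a2 each make alternative ends of the protein by splicing, and these ends are known to differ with age for Atp2a1 and with tissue for Atp2a2. The reading-frame ends are shown because they tell the forms apart, while the shares below are those of whole transcripts. Each begins with 30 bases shared by both forms of a gene in lower case, and the bases after the split are in capitals with the stop codon. They are transcript sequences from GENCODE M21, read 5′ to 3′ on the gene's strand. Their positions span an intron except for Atp2a2-201, whose bases are contiguous in the genome.
Atp2a1-201: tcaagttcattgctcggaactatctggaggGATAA
Atp2a1-202: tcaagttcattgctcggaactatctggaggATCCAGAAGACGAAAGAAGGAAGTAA
Atp2a2-202: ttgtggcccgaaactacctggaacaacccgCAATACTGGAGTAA
Atp2a2-201: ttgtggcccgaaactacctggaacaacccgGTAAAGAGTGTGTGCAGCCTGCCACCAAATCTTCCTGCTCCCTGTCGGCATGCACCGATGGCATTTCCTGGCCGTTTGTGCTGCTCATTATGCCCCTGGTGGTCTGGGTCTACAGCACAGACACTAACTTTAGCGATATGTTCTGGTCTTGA

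Nearly all Atp2a1 RNA was assigned to the adult form. Atp2a1-201, with a frame of 994 codons, keeps a 42-base exon (chromosome 7, 126446545 to 126446586) whose leading bases close the frame, and this is the adult SERCA1a end. Atp2a1-202 skips that exon and reads 23 further coding bases before its stop, as the neonatal SERCA1b form does. It is annotated only as a fragment of 681 bases that lacks its start. Atp2a1-201 held 99.93% of the gene's TPM in library 2 and 99.91% in library 1, and Atp2a1-202 held 0.0664% in library 2 and 0.0890% in library 1. In counts this was 131.7 in library 2 and 182.2 in library 1 for the fragment, so it was measured but rare in both. The second quantifier gave the fragment 0.0394% in library 2 and 0.0513% in library 1.

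Atp2a2 RNA was mainly of the muscle form. Atp2a2-202, whose frame of 998 codons closes with the short SERCA2a end, held 77.9% of the gene's TPM in library 2 and 76.1% in library 1. Atp2a2-201, with 1044 codons and the longer end of the ubiquitous SERCA2b form, held 20.5% in library 2 and 22.3% in library 1. The second quantifier gave the muscle form 80.8% in library 2 and 79.4% in library 1. The muscle form thus led in both libraries and by both methods, with 167.3 TPM in library 2 and 122.6 TPM in library 1. The long form had 43.9 TPM in library 2 and 35.9 TPM in library 1. For Atp2a3 the transcript with 1038 codons held 98.8% in library 2 and 89.8% in library 1, but the gene had only 204 counts in library 2 and 303 in library 1. The second quantifier put the libraries in the reverse order for this transcript, with 86.8% in library 2 and 99.6% in library 1.

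The inhibitors of the pump were scarce beside it. The coding sequences of sarcolipin, phospholamban and myoregulin (Mrln, an inhibitor of the same kind in skeletal muscle) are shown because such short frames encode whole inhibitors, with start and stop codons in capitals. They lie at chr9:53853473-53853568, chr10:53343864-53344022 and chr10:70219496-70219636 (mm10, plus strand) and come from the GENCODE M21 transcripts.
Sln: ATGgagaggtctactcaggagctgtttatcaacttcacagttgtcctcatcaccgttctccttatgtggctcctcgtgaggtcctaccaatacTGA
Pln: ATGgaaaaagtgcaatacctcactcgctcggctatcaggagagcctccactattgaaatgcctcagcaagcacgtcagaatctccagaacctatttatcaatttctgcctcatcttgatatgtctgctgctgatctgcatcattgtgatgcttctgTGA
Mrln: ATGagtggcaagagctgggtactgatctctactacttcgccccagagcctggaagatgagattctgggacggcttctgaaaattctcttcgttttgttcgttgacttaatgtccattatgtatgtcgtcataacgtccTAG

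Sln (gene: chromosome 9, 53850164 to 53854560) had 0.62 TPM in library 2 and 0.41 TPM in library 1, from 20 counts in library 2 and 15 in library 1, and was the only gene of the set below TPM 1. Pln (gene: chromosome 10, 53337667 to 53345987) had 13.3 TPM in library 2 and 8.38 TPM in library 1, from 519 counts in library 2 and 416 in library 1. Phospholamban is best known as the regulator of SERCA2 in the heart and slow fibres. Per 100 TPM of all pump genes, Pln and Sln together came to 0.105 TPM in library 2 and 0.0748 in library 1 (0.0901 ± 0.0216). Per 100 TPM of Atp2a2 alone, Pln came to 6.19 in library 2 and 5.20 in library 1 (5.70 ± 0.695).

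Pln held 95.5% of the TPM of Pln and Sln in library 2 and 95.3% in library 1. All 6 annotated Pln transcripts carry the same frame of 52 codons, so their shares concern only the untranslated parts. Pln-201 held 52.1% in library 2 and 63.2% in library 1, and Pln-204 held 47.9% in library 2 and 26.0% in library 1. These rest on 112.3 counts of Pln-204 in library 2 and 44.5 in library 1. Pln-201 held 39.2% in library 2 and 46.4% in library 1 by the second quantifier. Pln-204 held 42.5% in library 2 and 23.6% in library 1 by that method. Which of these transcripts led in library 2 thus depended on the quantifier. Pln-205 had a mean share of 20.1 ± 2.62% by the second quantifier, against 5.42 ± 7.67% by the first. Pln lies within Cep85l on the opposite strand, which had 23.2 TPM in library 2 and 36.9 TPM in library 1. No source used here says whether the counting used strand, so reads of the overlap cannot be assigned with certainty. The same holds for Atp2a1 and Rabep2, which overlap on opposite strands, though Rabep2 had only 4.78 TPM in library 2 and 4.09 TPM in library 1. In mean TPM the nearest genes to Pln were Zfp146 at 10.9 ± 1.22 and Carns1 at 10.8 ± 2.75.

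Of the other short regulators, Mrln was the most abundant, with 94.0 TPM in library 2 and 109.6 TPM in library 1. That is 0.712 TPM per 100 TPM of the pump genes in library 2 and 0.932 in library 1. Mrln thus exceeded Pln in both libraries, and its TPM was lower in library 2, where that of Pln was higher. S100a1, a calcium sensor that raises pump activity, had 69.1 TPM in library 2 and 58.8 TPM in library 1. Smim6, a further short regulator of this family, had 0 counts in either library. A count of 0 leaves room for at most 0.0869 CPM, a count relative to the library's total, in library 2, and for 0.0843 CPM in library 1. In all, 4 of 5 genes of this list were detected, that is, had TPM of at least 1 in both libraries. By the second quantifier 3 were, since it put Gm34302 at 3.46 TPM in library 2 and 0.403 TPM in library 1.

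Among the buffers of the reticulum lumen the fast calsequestrin led. Casq1 (chromosome 1, 172209894 to 172219868, minus strand), the main calcium store protein of fast fibres, had 1325 TPM in library 2 and 827.2 TPM in library 1. Casq2 (chromosome 3, 102086415 to 102146514, plus strand), the cardiac and slow form, had 11.8 TPM in library 2 and 10.9 TPM in library 1. Casq1 held 99.1% of calsequestrin TPM in library 2 and 98.7% in library 1 (98.9 ± 0.296%). The full Casq1-201 transcript, with 405 codons, held 86.7% of the gene's TPM in library 2 and 87.3% in library 1. The rest went to the retained-intron transcript Casq1-202. The second quantifier gave Casq1-201 79.0% in library 2 and 80.9% in library 1, and Casq1-202 20.9% in library 2 and 18.9% in library 1. For Casq2 the first quantifier gave all TPM to Casq2-201, whereas the second gave 22.6% in library 2 and 16.9% in library 1 to the retained-intron transcript Casq2-203.

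Srl and Hrc stood at like levels by the first quantifier but not by the second. Srl (chromosome 16, 4480216 to 4541816, minus strand), which encodes sarcalumenin, had 442.4 TPM in library 2 and 380.3 TPM in library 1. Hrc (chromosome 7, 45335290 to 45338974, plus strand), which encodes the histidine-rich calcium-binding protein, had 390.2 TPM in library 2 and 320.1 TPM in library 1. The libraries of these genes overlapped, with a ratio of means of 1.16. By the second quantifier Srl had 617.9 TPM in library 2 and 537.4 TPM in library 1, and Hrc had 356.2 TPM in library 2 and 287.2 TPM in library 1, without overlap and with a ratio of means of 1.80. Per 100 TPM of Casq1, Srl came to 33.4 TPM in library 2 and 46.0 in library 1, and Hrc to 29.5 TPM in library 2 and 38.7 in library 1. Hrc-201, with 738 codons, held 97.7% of Hrc TPM in library 2 and 97.5% in library 1.

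Srl makes a long luminal protein and a shorter glycoprotein from 1 gene, and both forms were present. Srl-201, with 910 codons, carries an exon of its own of 1311 bases (chromosome 16, 4496405 to 4497715), which amounts to 437 codons. It held 42.4% of Srl TPM in library 2 and 43.9% in library 1. Srl-202, with 472 codons, held 44.4% in library 2 and 43.9% in library 1. The order of the forms was not settled, since library 2 put Srl-202 higher and the 2 values of library 1, 166.8 TPM for Srl-202 and 167.0 for Srl-201, were nearly equal. The second quantifier gave Srl-201 25.6% in library 2 and 25.5% in library 1, and Srl-202 29.5% in library 2 and 27.9% in library 1. To Srl-204 and Srl-205, which are short non-coding entries, it assigned 28.4% and 16.1% in library 2 and 30.6% and 15.5% in library 1. Beside this, the second quantifier's level of Srl was higher by 0.49 on the log2 scale, against a median of -0.05 over 10421 genes.

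**Figure D2:**
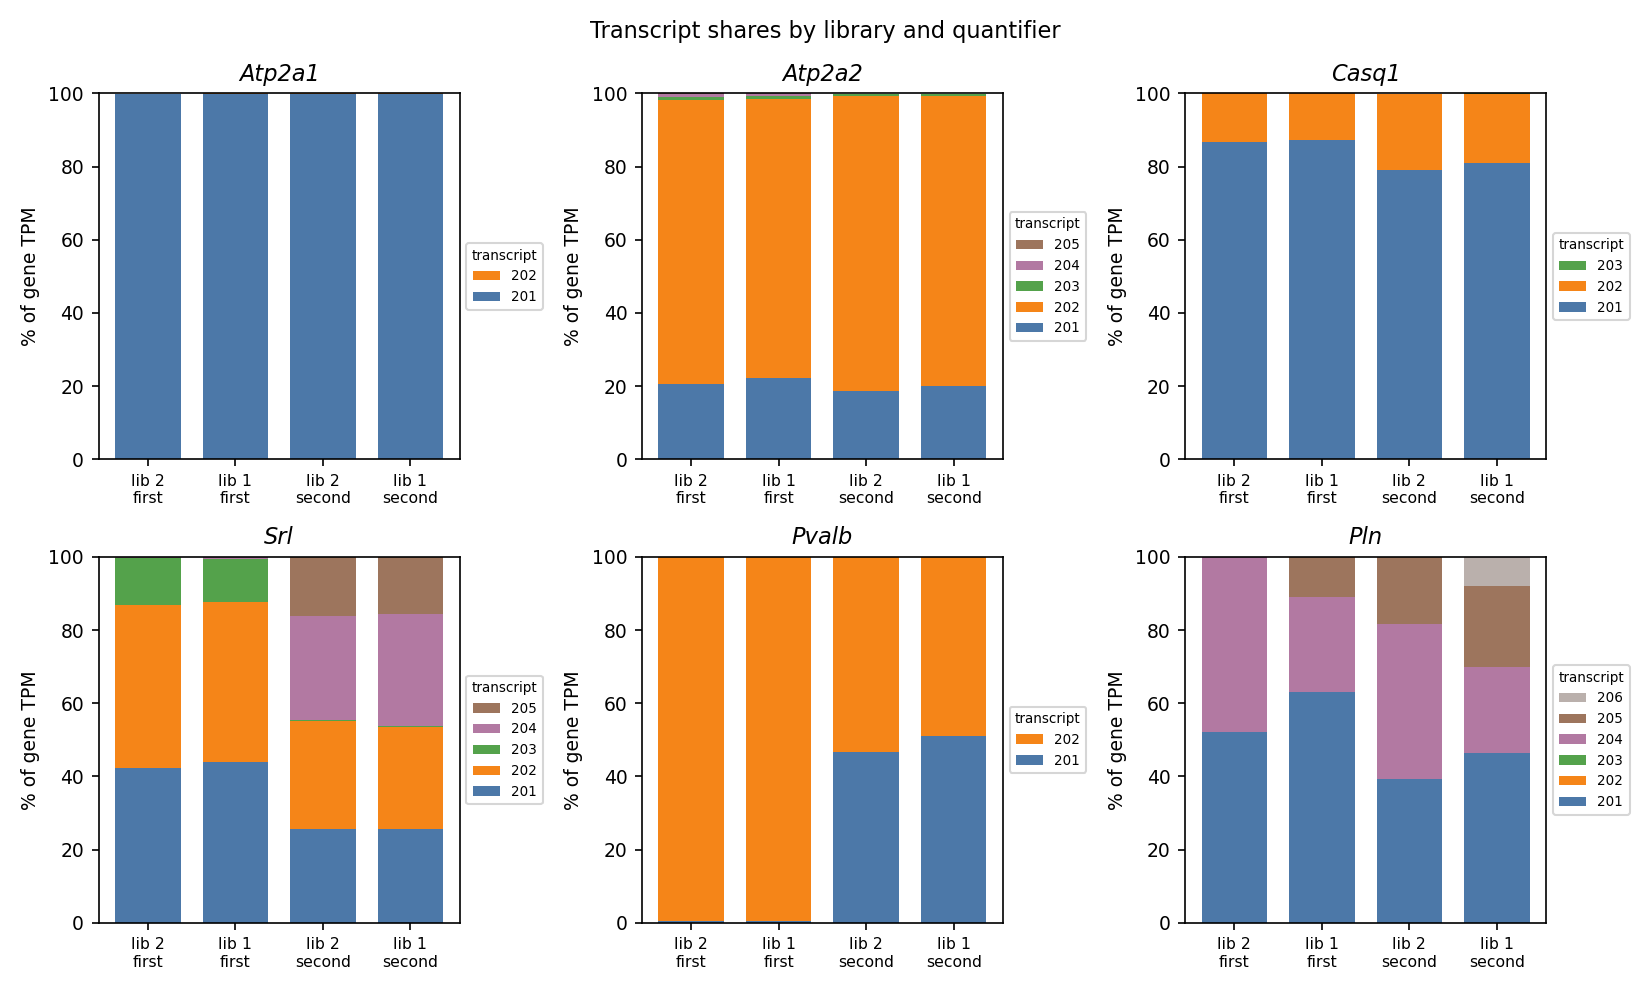
Stacked bars of each transcript's percent of its gene's TPM for 6 genes, with bars for library 2 and library 1 by the first quantifier and then library 2 and library 1 by the second. Atp2a1-201 fills nearly the whole bar in all 4 cases, and Pvalb-202 holds 99.6% in both libraries by the first quantifier, but 53.2% in library 2 and 48.9% in library 1 by the second.

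Parvalbumin was the second most abundant gene of the set. Pvalb (chromosome 15, 78191114 to 78206400, minus strand) had 6318 TPM in library 2 and 4621 TPM in library 1. Its mean of 5470 ± 1200 TPM ranked 12th among nuclear protein-coding genes, between Myl1, a fast myosin light chain, at 6588 ± 1229 and Gapdh, a glycolytic enzyme, at 4870 ± 386. Per 100 TPM of the pump genes it came to 47.9 in library 2 and 39.3 in library 1 (43.6 ± 6.05). Both its libraries were below both libraries of Atp2a1 and above both of Casq1.

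Pvalb has alternative first exons that lead into the same frame of 110 codons. Pvalb-202 starts at 78206400 with an exon of 64 bases that the other lacks. Pvalb-201 starts at 78204237 with 88 bases of its own. The first quantifier gave Pvalb-202 99.6% of the gene's TPM in both libraries, and Pvalb-201 0.417% in library 2 and 0.374% in library 1. The second quantifier gave Pvalb-202 53.2% in library 2 and 48.9% in library 1, and Pvalb-201 46.8% in library 2 and 51.1% in library 1. The use of the start sites is therefore not settled by these tables. The level of the whole gene differed less between methods, with 5528 TPM in library 2 and 3931 TPM in library 1 by the second quantifier. A mean gap of 25 percentage points or more in the leading transcript's share between quantifiers, a threshold chosen after these values were seen, was found in 12.3% of 5887 protein-coding genes with several transcripts and mean TPM of at least 5. Of 8 genes of the set in that population only Pvalb passed it, with a gap of 48.5 points.

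The 250 bases before each Pvalb start site are shown because the quantifiers differ in which site they assign the RNA to. They are from RefSeq (GRCm38.p6), read 5′ to 3′ on the minus strand, at chr15:78206401-78206650 for Pvalb-202 and chr15:78204238-78204487 for Pvalb-201. Capitals mark matches to the MEF2 motif or to CANNTG, the E-box core.
Pvalb-202: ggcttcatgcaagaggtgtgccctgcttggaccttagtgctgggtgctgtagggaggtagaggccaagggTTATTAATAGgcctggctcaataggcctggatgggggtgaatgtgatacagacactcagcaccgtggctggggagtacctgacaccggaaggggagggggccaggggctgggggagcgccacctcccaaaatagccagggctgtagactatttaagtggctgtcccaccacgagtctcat
Pvalb-201: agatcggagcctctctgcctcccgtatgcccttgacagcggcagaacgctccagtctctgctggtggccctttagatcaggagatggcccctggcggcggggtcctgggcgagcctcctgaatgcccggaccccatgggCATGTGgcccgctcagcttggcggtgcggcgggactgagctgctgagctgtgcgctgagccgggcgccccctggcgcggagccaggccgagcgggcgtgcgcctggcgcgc

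The windows differed in composition, with 58.4% G and C before Pvalb-202 and 71.6% before Pvalb-201, against a median of 52.4% over 32851 RefSeq promoters. Matches were sought on both strands for TATAAA, for the MEF2 motif, for CANNTG and for the CArG box. The window of Pvalb-202 held 1 MEF2 match, 171 to 180 bases before the start, a motif found in 1.69% of promoters. The window of Pvalb-201 held 1 CANNTG match, 106 to 111 bases before the start, a motif found in 66.2% of promoters. Neither held TATAAA, which is in 12.4% of promoters, or a CArG box, which is in 1.47%. Promoters of 7 of the 10 genes were matched, 8 in all, and those of Sln, Atp2a2 and Srl were not analysed here. The only other MEF2 match was before Casq2, at 60 to 69 bases. A match describes letters and is not shown to be a bound site.

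As a group the 10 genes summed to 21704 TPM in library 2 and 17924 TPM in library 1. This was 4.86% of nuclear protein-coding TPM in library 2 and 4.58% in library 1 (4.72 ± 0.200%). Atp2a1 held 59.8% of the sum in library 2 and 64.7% in library 1, and Pvalb held 29.1% in library 2 and 25.8% in library 1. The 8 other genes together held 11.1% in library 2 and 9.54% in library 1. Of the 10 genes, 9 were detected, against 44.5% of 22015 nuclear protein-coding genes and 19.2% of all 55536 annotated genes. In the order of mean TPM, Srl and Hrc overlapped by the first quantifier alone, while Casq2 and Pln overlapped by both, with a ratio of means of 1.05 by the first. All other neighbours in the order did not overlap by either quantifier, and the second gave the same order. The widest step was between Atp2a2 and Casq2, with a ratio of means of 16.5.

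Between the libraries the counts were compared as a log2 ratio of library 2 over library 1 after TMM scaling, with a 95% interval for counting error only. With 2 libraries an exact two-sided sign-flip test cannot go below p = 0.5, so these ratios are descriptions. A gene was called apart at an absolute log2 ratio of at least 1 with mean TPM of at least 5 and a summed count of at least 100. None of the 8 genes of the set that could be called was apart, against 0.509% of 6685 genes. Of the 9 genes detected, 6 were higher in library 2, against 49.9% of 10682 genes. Their median ratio was 0.11, beside a median of 0.00 and quartiles of -0.12 and 0.11 over all genes detected.

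Casq1 differed most among the genes of the set that could be called. Its counts were 56897 in library 2 against 41195 in library 1, giving a ratio of 0.50 (0.48 to 0.52) or 1.41-fold, and 3.23% of the 6685 genes had an absolute ratio as large. Pvalb counts were 141743 in library 2 against 119850 in library 1, giving a ratio of 0.27 (0.26 to 0.29). The pump gene itself hardly differed: Atp2a1 had a ratio of -0.01 (-0.02 to -0.01), which was 0.16 on deposited TPM, and 92.5% of genes had one as large. Srl had a ratio of 0.02, which turned to -0.041 with spike-in scaling, and Hrc one of 0.11.

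The genes of slow and cardiac muscle did not move alike. Pln had a ratio of 0.35 (0.16 to 0.54) and Atp2a2 one of 0.23 (0.20 to 0.26), while that of Casq2 was -0.06 (-0.21 to 0.08), from 763 counts in library 2 and 815 in library 1, and 0.11 on deposited TPM. Beside them, all 5 slow fibre markers were higher in library 2, with a median ratio of 0.28 and a range from Tnni1 at 0.20 to Myl3 at 0.33. The 5 fast fibre markers had a median of 0.06, with 4 higher in library 2. Over all detected genes 49.9% were higher in library 2. The part of slow fibre RNA in the ratios of Pln and Atp2a2 was not tested. Atp2a3 was lower in library 2, with a ratio of -0.54 (-0.80 to -0.28), and Sln, at its low counts, had an interval from -0.59 to 1.52. Of the 4 endothelial markers, which mark cells that can express Atp2a3, 1 was higher in library 2, and their median was -0.11. The counting interval of each of these markers took in both signs. On deposited TPM they summed to 39.2 TPM in library 2 and 34.7 TPM in library 1. Deposited TPM ran higher in library 2 over all detected genes, with a median log2 ratio of 0.17. Of the 5 lymphocyte and platelet markers only Pf4, a platelet gene, was detected, with 2.10 TPM in library 2 and 3.32 TPM in library 1. The platelet gene Itga2b had 0.31 TPM in library 2 and 0.27 TPM in library 1, and the leukocyte gene Ptprc 0.40 TPM in library 2 and 0.30 TPM in library 1. Cd3e and Cd79a were at or below 0.07 TPM. The sum of the list was 2.83 TPM in library 2 and 3.96 TPM in library 1, and most of it was Pf4. These levels rest on few counts. Pf4 had 25 counts in library 2 and 46 in library 1, with a ratio of -0.85 (-1.61 to -0.11). Itga2b had 8 counts in each library (interval -1.58 to 1.64). Ptprc had 42 in library 2 and 38 in library 1 (interval -0.49 to 0.85), so neither Itga2b nor Ptprc shows a direction. The part of these cells in the ratio of Atp2a3 was not tested.

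**Figure D3:**
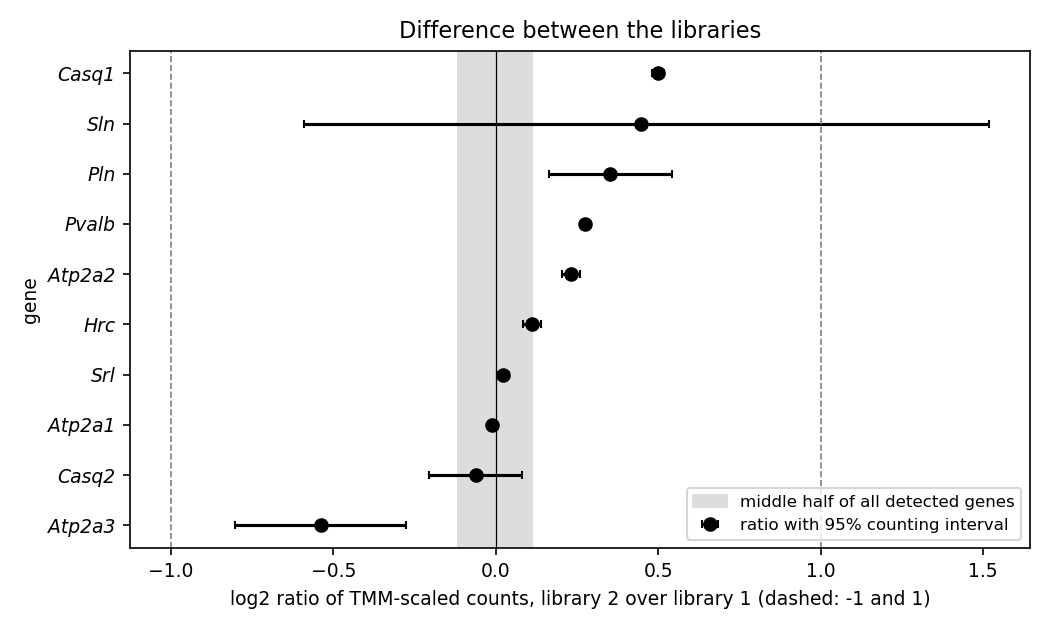
Log2 ratio of TMM-scaled counts, library 2 over library 1, for the 10 genes, with 95% counting intervals as bars and the middle part of all detected genes, between quartiles of -0.12 and 0.11, in grey. All 10 points lie between the dashed lines at -1 and 1, from Atp2a3 at -0.54 to Casq1 at 0.50, and the interval of Sln is the widest.

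Around the set, 38 further genes of calcium handling were read from 6 lists, and 30 of them were detected, or 29 by the second quantifier. Over nuclear protein-coding genes 44.5% were detected, and over all annotated genes 19.2%. The median ratio of the 30 between libraries was 0.05, with 19 of 30 higher in library 2 and 0 apart. Over all genes 49.9% of those detected were higher in library 2, and 0.509% of 6685 were apart. Of 10 other calcium pumps and exchangers, 7 were detected. They were led by Atp2b1, a pump of the plasma membrane, with 31.6 TPM in library 2 and 27.3 TPM in library 1, and Atp2c1, a pump of the Golgi, with 18.5 TPM in library 2 and 15.8 TPM in library 1. Atp2b2, Slc8a2 and Atp2c2 were at or below 0.15 TPM in both libraries. Every gene of this list stood below Atp2a2 in both libraries.

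Of 6 genes of store-operated entry, by which an emptied reticulum is refilled from outside, 5 were detected. Saraf, which turns the entry down, had 69.2 TPM in library 2 and 63.3 TPM in library 1, and Stim1, the calcium sensor in the reticulum membrane, had 71.1 TPM in library 2 and 59.5 TPM in library 1. The channel gene Orai2 was below TPM 1, with 22 counts in library 2 and 5 in library 1. Other calcium binders of the reticulum lumen, found in most cells, were all 5 detected. They were led by the chaperones Calr (calreticulin), with 71.2 TPM in library 2 and 73.6 TPM in library 1, and Hspa5, with 77.0 TPM in library 2 and 65.0 TPM in library 1. Both were below Srl and Hrc and far below Casq1.

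Of 8 other cytosolic calcium binders, 5 were detected, all 5 higher in library 2 with a median ratio of 0.21, against 49.9% of all detected genes. Tnnc2, the fast troponin C that triggers contraction, had 7619 TPM in library 2 and 6159 TPM in library 1, above Pvalb in each library. Calb1, Calb2 and Ocm, which encode buffers of neurons, epithelia and hair cells, had 0 counts in both libraries. Pvalb was thus the only detected gene of a dedicated cytosolic buffer among those read. All 4 junction partners of calsequestrin were detected. Ryr1, the calcium release channel, had 815.3 TPM in library 2 and 689.4 TPM in library 1, and Trdn, triadin, which ties calsequestrin to the channel, had 508.9 TPM in library 2 and 421.6 TPM in library 1. Casq1 was above both in each library.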

How the data were processed

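Reads were assigned to mm10 and GENCODE M21, per the deposited read-me. The sources used here name no aligner or counter. The first quantifier is the deposited gene and transcript tables with the columns RSEM writes, made from a transcriptome alignment per the read-me. The second is the deposited transcript tables with the columns kallisto writes, made from the reads. The deposited expected counts need not be whole and were rounded to whole numbers for the ratios. TPM is as the authors deposited it and takes in the spike-ins. Transcript shares were computed here from TPM beside the percent values that the authors deposited. A directional kit was used per the labels, and 300 ng of RNA entered each library.

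Depth was 34541905 expected counts for library 2 and 35594289 for library 1, with spike-ins at 0.504% in library 2 and 0.479% in library 1. The 26248 entries with a numeric identifier, holding 0 counts in library 2 and 1 in library 1, were left out. Ratios used TMM factors from edgeR 4.0.16 (R 4.3.3) over 11577 genes with at least 1 CPM in both libraries. The scaled ratios were tested on simulated counts with counting error only, so that test does not cover the further variation between the real libraries. Clopper-Pearson 95% intervals were given with the ratios and were not part of that test. Intervals and the floor of 3 counts cover counting error only. Alternatives used DESeq2 1.42.0 size factors, spike-ins, library totals, deposited TPM and the second quantifier. On deposited TPM the median log2 ratio of all detected genes was 0.17, so TPM alone runs higher in library 2. The genes and lists were chosen with earlier results of these data known. Named from each list of further calcium-handling genes were the 2 genes of highest mean TPM, those under TPM 1 in both libraries and any apart. Of the marker lists only some genes were named, as checks and not by this rule. A gene that this rule names is not reported here.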

Additional observations from a re-analysis of the deposited data

How the results depend on the processing

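The dominance of Atp2a1 and Casq1 in their families held under each alternative run. The Atp2a1 share of pump TPM was 98.1% by the second quantifier and 98.2% on expected counts, and the Casq1 share of calsequestrin was 98.4% on expected counts. The summed share of the set was 4.09% by the second quantifier, 5.46% on expected counts and 2.00% of all annotated genes, as the denominators differ. The median ratio of the set was 0.29 on deposited TPM, where the median of all genes was itself 0.17. Signs turned for Atp2a1 (0.16) and Casq2 (0.11) on deposited TPM and for Srl (-0.041) with spike-in scaling, which moved the median of all genes to -0.06. Of the single genes' ratios under the 7 other settings, 54 stayed within the counting interval, 13 left it without a change of sign and 3 changed sign. The Pvalb-202 share of 51.1% by the second quantifier was an alternative added after seeing the data, and the cause was not tested. The order of the genes and the counts of listed genes detected by the second quantifier were also added after seeing the data. No paired analysis was possible because there is 1 group. With 2 libraries and 1 degree of freedom, Sln and Atp2a3 are limited by their counts.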

Other observations

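Several genes near the set had levels that depended on the quantifier, none of them examined further. Gm34302, listed by RefSeq as Strit1 or DWORF, a short activator of the pump, had 51.9 TPM in library 2 and 38.4 TPM in library 1 by the first quantifier. By the second it had 3.46 TPM in library 2 and 0.403 TPM in library 1. Gm34302 was below Mrln in both libraries by both quantifiers. It was above Pln by the first and below Pln by the second, so its level relative to Pln is not settled. Myh6 had 78.2 TPM in library 2 and 59.2 TPM in library 1 by the first quantifier and 29.0 TPM in library 2 and 21.1 TPM in library 1 by the second. Calb1, with 0 counts by the first, had 0.746 TPM in library 2 and 0.189 TPM in library 1 by the second. The gene 1810037I17Rik, listed by RefSeq as Aln, a further short regulator of the pump, had a level that hardly depended on the quantifier. By the first it had 9.97 TPM in library 2 and 8.98 TPM in library 1, close to Pln. By the second it had 11.5 TPM in library 2 and 10.3 TPM in library 1. These genes were named after their values were seen. Of 4 neuron markers only Stmn2 passed TPM 1, with 1.42 TPM in library 2 and 1.05 TPM in library 1, and Rbfox3, Snap25 and Tubb3 were at or below 0.14 TPM. The smooth muscle markers summed to 36.7 TPM in library 2 and 32.3 TPM in library 1.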
